A study of Mus musculus with 12 samples.

Results

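The genes measured here are 7 genes of thyroid hormone signaling and response: Slco1c1, Dio2, Thra, Thrb, Crym, Klf9, and Hr. They were chosen by gene symbol from the 55418 genes of the count table, and all 7 were found and passed the filter on low counts in every comparison. Brainstem RNA was sequenced from 12 outbred CFW mice at P15, with 1 library per mouse and no pooling: 6 saline mice (3 of each sex) and 6 morphine mice (3 of each sex). Pups of both groups were injected morning and afternoon from birth through the second postnatal week, with morphine as a model of opioid exposure in the newborn or with saline as the control, and tissue was taken in spontaneous withdrawal. The comparisons ask whether morphine changed expression in both sexes combined, in females, and in males, and whether the change differed between the sexes. Littermates were split between the treatments, but the dam of each mouse was not known here.

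Counts on genes ranged from 27850565 to 48097947 per library, with a median of 33214511. The tissue label is brainstem, although the description of the extraction names spinal cords. The genes Hoxb3, Hoxb4, Hoxa5, and Slc6a5 were detected in all 12 libraries. They are active in spinal cord as well as hindbrain, so they cannot tell the 2 tissues apart. Prl was at 0 in 10 libraries, Gh in 11, and Cga, whose product pairs with that of Tshb, in all 12. Pomc was at most 1.23 CPM. These pituitary transcripts were thus at or near 0, whereas Tshb had 6.61 to 10.1 CPM. The library labelled morphine male 6 had 379.9 CPM (counts scaled to a common library size) of Xist, the transcript that silences an X chromosome in females, against 0.398 to 2.71 CPM in the other 5 males. Its Y-linked transcripts Ddx3y, Kdm5d, Uty, and Eif2s3y were at 12.8, 12.4, 9.03, and 19.0 CPM, below each of the other 5 males (lowest values 117.8, 31.7, 24.7, and 56.4 CPM) and above every female (at most 0.729 CPM). This library, which held both Xist and Y-linked transcripts, was kept in its labelled group. The 3 saline males also stood apart from each other: 2 of them had the highest representation of GC-rich transcripts among the 12 libraries, and the third had the lowest. Where leaving out any of these 4 libraries changed a call in males, the change is given beside the result.

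Thyroid hormone reaches the brain mainly as the prohormone T4, which crosses the blood-brain barrier and enters glia through carriers such as OATP1C1, the product of Slco1c1. Type 2 deiodinase, the product of Dio2, is made largely by astrocytes and converts T4 to the active hormone T3. T3 binds the nuclear receptors TRα and TRβ, encoded by Thra and Thrb, which sit with retinoid X receptors on response elements and raise or lower transcription of targets that include Klf9 and Hr. In the postnatal brain this pathway governs myelination, neuronal differentiation, and the maturation of the cerebellum.

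Promoter windows from RefSeq on GRCm38.p6, of 250 bases before the transcript start, were matched for 4 of the 7 genes: Slco1c1, Dio2, Klf9, and Thrb with 2 starts. The core motif of thyroid hormone receptor binding, AGGTCA, was searched on both strands, and 14.0% of all 32851 windows of this length hold it. A direct repeat of this core with 4 bases between its copies, the classical response element, was found in 0.0152% of all windows and in none of the 5 windows of these genes. The core itself was found in 1 of the 5, at the upstream start of Thrb. That window is shown with the windows of Klf9 and Slco1c1, which moved together across libraries, all on the plus strand, with the core in capitals. They lie at chr14:17660710-17660959, chr19:23140976-23141225, and chr6:141524104-141524353, in this order.
Thrb: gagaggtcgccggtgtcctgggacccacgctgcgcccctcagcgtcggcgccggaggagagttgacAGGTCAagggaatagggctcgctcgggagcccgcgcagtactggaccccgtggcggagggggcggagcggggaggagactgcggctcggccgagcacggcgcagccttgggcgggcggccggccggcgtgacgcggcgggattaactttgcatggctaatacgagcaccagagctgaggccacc
Klf9: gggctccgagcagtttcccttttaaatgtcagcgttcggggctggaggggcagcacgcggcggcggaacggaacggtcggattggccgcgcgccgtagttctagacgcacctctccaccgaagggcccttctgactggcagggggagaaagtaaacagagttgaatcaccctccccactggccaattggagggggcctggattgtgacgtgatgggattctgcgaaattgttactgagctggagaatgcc
Slco1c1: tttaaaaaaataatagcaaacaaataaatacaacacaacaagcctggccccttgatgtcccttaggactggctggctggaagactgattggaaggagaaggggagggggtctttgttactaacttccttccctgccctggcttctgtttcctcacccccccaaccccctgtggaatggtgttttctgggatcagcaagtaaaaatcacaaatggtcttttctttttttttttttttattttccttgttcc
The windows differed in base composition, with 71.6% GC at Thrb, 59.6% at Klf9, and 42.8% at Slco1c1, against a median of 52.4% over all windows. These matches describe the letters in the windows and say nothing on binding.

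The genes spanned the range from abundant to barely detected transcripts. Per kilobase of exon, Thra was highest at 47.7 ± 14.3 CPM per kb (SD, n = 12), followed by Klf9 at 38.0 ± 3.53 and Slco1c1 at 32.7 ± 3.65. Dio2 had 15.5 ± 2.52 CPM per kb, Hr 7.22 ± 2.76, Thrb 2.51 ± 0.248, and Crym, which encodes a cytosolic T3-binding protein, 0.377 ± 0.155. Thra was therefore represented by far more transcript per length than Thrb in this tissue. These counts pool all splice forms of a gene, so they do not give the amount of transcript for a T3-binding receptor. Thra was above Klf9 in 9 of the 12 libraries and Dio2 above Hr in 11 of the 12, and these neighbours in the order overlapped, as did Klf9 and Slco1c1 in their ranges, although Klf9 was the higher of that pair in all 12 libraries. Every other neighbour pair kept its order in all 12 libraries. Among the tested genes with a known exon length, Thra lay at percentile 95.8 for level per kb and Crym at percentile 16.2.

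**Figure D1:**
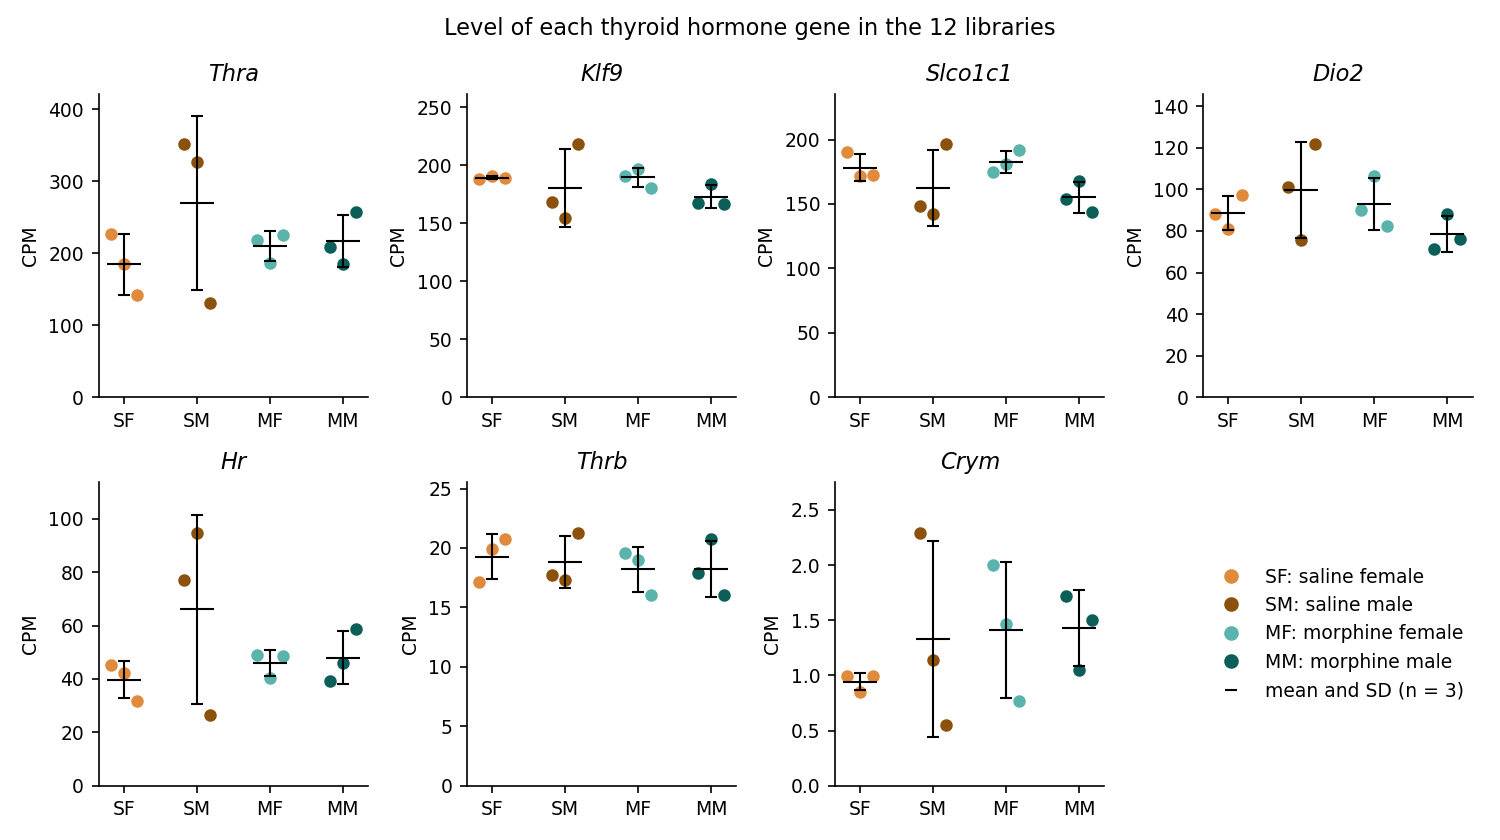
CPM of each gene (y axis, from 0) in the 12 libraries, in 4 groups of 3 mice on the x axis, with each point a mouse and the bar the mean ± SD. The saline males spread most for Thra, from 130.7 to 351.3 CPM, and for Hr, from 26.4 to 94.9 CPM, and the morphine and saline groups overlap for every gene.

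None of the 7 genes was differentially expressed (DE) with morphine in any of the 4 comparisons. A gene was called DE where edgeR's quasi-likelihood test gave p under 0.05 before adjustment and the log2 fold change exceeded 0.26 in size, which are the study's thresholds. By this rule 1.19% of all genes tested were DE in both sexes combined, 1.81% in females, 2.99% in males, and 2.94% for the difference between the sexes. With p under 0.05 alone or with the Wald test of DESeq2 the count was also 0 of 7 in each of the 4 comparisons, and the smallest adjusted p of the 7 genes by edgeR's quasi-likelihood test was 0.985. The levels of saline and morphine mice overlapped for all 7 genes in every comparison, whereas 0.043% of genes did not overlap in both sexes combined, 5.65% in females, and 9.1% in males. The median log2 fold change of the 7 genes was -0.05 in both sexes combined, 0.06 in females, and -0.08 in males, beside -0.02, -0.0058, and -0.06 over all genes tested. The p values take mice as replicates, with a spread that edgeR estimates partly from other genes and with litter left out. Whether fewer cells of a type or less RNA per cell lie behind a level cannot be told apart in bulk tissue.

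**Figure D2:**
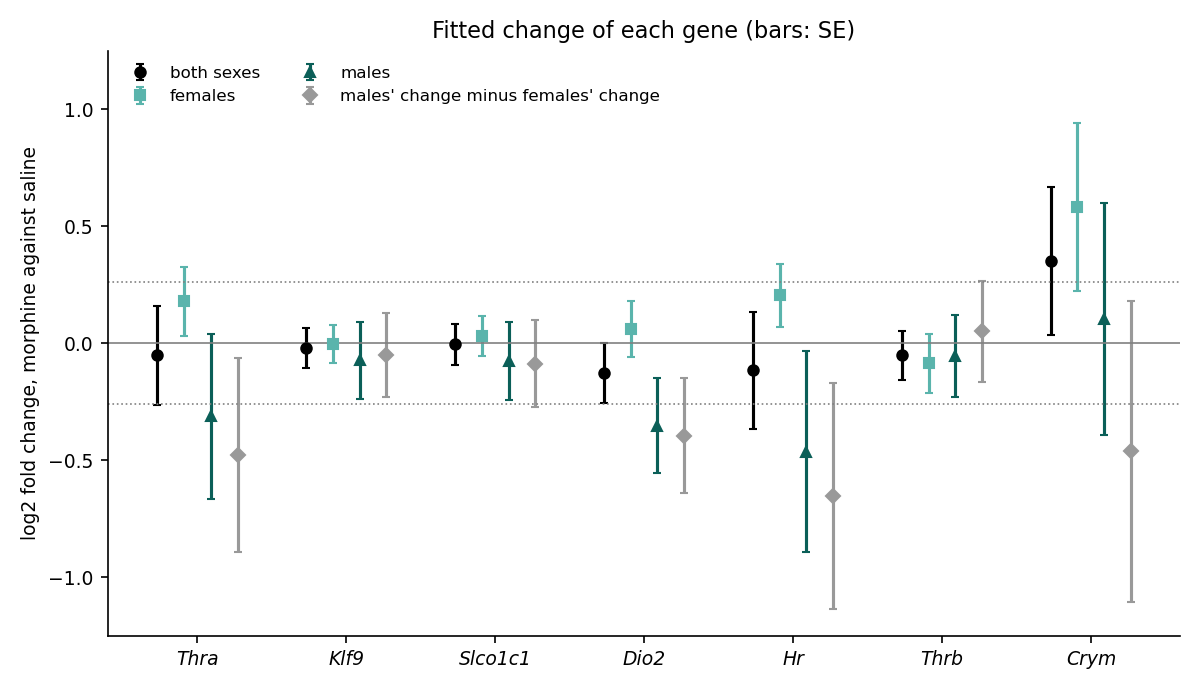
Log2 fold change of each gene (y axis, morphine against saline, bars are SE) in both sexes combined, in females, in males, and as the change in males minus that in females, with dotted lines at 0.26 above and below 0. In both sexes combined and in each sex the bars of Klf9, Slco1c1, and Thrb stay inside the dotted lines. Those of Thra, Hr, and Crym cross them in every comparison, and those of Dio2 in males and for the difference between the sexes.

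The hormone carrier Slco1c1 (chromosome 6, 141524368 to 141570177, plus strand, 5186 exonic bases) had levels from 142.4 to 196.5 CPM in saline mice, with a median of 172.0, and from 144.0 to 192.1 CPM in morphine mice, with a median of 171.4. The groups covered nearly the same range. Its log2 fold change was -0.0054 ± 0.09 (SE) in both sexes combined, 0.030 ± 0.08 in females, and -0.08 ± 0.17 in males.

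Dio2 (chromosome 12, 90724552 to 90738438, minus strand, 2 exons) had a median of 92.8 CPM in saline mice, with a range of 75.7 to 121.8, and a median of 85.3 CPM in morphine mice, with a range of 71.3 to 106.7. In males, the saline values were 101.3, 75.7, and 121.8 CPM and the morphine values 71.3, 88.3, and 76.4 CPM. Saline male 2 lay within the morphine range and the other 2 saline males lay above it. The log2 fold change in males was -0.35 ± 0.20 (SE), which did not pass the test, and it was 0.06 ± 0.12 in females and -0.13 ± 0.13 in both sexes combined. The change in males minus that in females was -0.39 ± 0.24 and did not pass either. Dio2 shares 100 exonic bases with Gm26512, a long noncoding RNA on the other strand that starts beside it, and the strand setting of the counting is not given in the sources used here.

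Thra (chromosome 11, 98740638 to 98769006, plus strand, 4614 exonic bases) ranged from 130.7 to 351.3 CPM in saline mice, with a median of 206.0, and from 185.1 to 256.7 CPM in morphine mice, with a median of 213.5. The highest and the lowest libraries were both saline males. In males the saline values were 351.3, 325.8, and 130.7 CPM and the morphine values 209.1, 185.1, and 256.7 CPM, all inside the saline range. The log2 fold change was -0.05 ± 0.21 (SE) in both sexes combined, 0.18 ± 0.15 in females, and -0.31 ± 0.35 in males. In females it met the rule for DE only without saline female 4, the female with the most Thra, at 0.35. At the end of the gene, 263 exonic bases overlap Nr1d1, a circadian repressor gene transcribed from the other strand, and reads there cannot be assigned without strand. Nr1d1 itself had 10.5 CPM in saline male 3 and 35.3 CPM in saline male 2, its lowest and highest libraries.

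Thrb (chromosome 14, 17660261 to 18038090, plus strand, 7403 exonic bases) varied less than Thra, from 17.1 to 21.3 CPM in saline mice with a median of 18.8, and from 16.1 to 20.7 CPM in morphine mice with a median of 18.4. The groups overlapped over most of this range. Its log2 fold change was -0.05 ± 0.10 (SE) in both sexes combined, -0.09 ± 0.13 in females, and -0.05 ± 0.17 in males.

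Crym (chromosome 7, 120186380 to 120202111, minus strand, 3391 exonic bases) was at 0.551 to 2.29 CPM in saline mice, with a median of 0.991, and at 0.771 to 2.00 CPM in morphine mice, with a median of 1.49. It rested on 18 to 77 counts per library. The median was higher in morphine mice, but the highest library was saline male 1. The log2 fold change was 0.35 ± 0.32 (SE) in both sexes combined, 0.58 ± 0.36 in females, and 0.10 ± 0.50 in males. Crym became DE in both sexes combined without saline male 1, at 0.66 ± 0.27 (adjusted p = 1 by edgeR's quasi-likelihood test), and in females without morphine female 3, at 0.86. Other mice moved it down: in both sexes combined it was 0.17 without morphine female 1 and 0.19 without saline male 3, and in females it was 0.25 without morphine female 1.

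The target Klf9 (chromosome 19, 23141226 to 23168134, plus strand, 3 exons), a Krüppel-like factor that T3 induces in neurons and oligodendrocytes, ranged from 154.5 to 218.3 CPM in saline mice with a median of 188.5, and from 166.3 to 197.2 CPM in morphine mice with a median of 182.5. Morphine values fell inside the saline range. Its log2 fold change was -0.02 ± 0.09 (SE) in both sexes combined, -0.0029 ± 0.08 in females, and -0.07 ± 0.17 in males. The target Hr (chromosome 14, 70552212 to 70573548, plus strand, 21 exons), which encodes the corepressor hairless, ranged from 26.4 to 94.9 CPM in saline mice with a median of 43.7, and from 39.3 to 58.7 CPM in morphine mice with a median of 47.2. In males the saline values were 77.1, 94.9, and 26.4 CPM and the morphine values 39.3, 45.9, and 58.7 CPM. As with Thra, the saline males held both ends of the range. The log2 fold change of Hr was -0.12 ± 0.25 (SE) in both sexes combined, 0.21 ± 0.13 in females, and -0.46 ± 0.43 in males. In an exact two-sided permutation test of 6 against 6 mice, p values of the 7 genes ran from 0.268 for Crym to 0.989 for Thra, where the smallest possible is 0.00216.

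The levels of 5 of the 7 genes moved with the base composition of the libraries, those of Thra and Hr most closely. The share of all tested genes that did so was not computed, so this count cannot be read as particular to these 7. The longest transcript of Thra is 59.8% GC and that of Hr 61.6%, at percentiles 95.8 and 98.2 of the tested genes. Those of Thrb, Dio2, and Slco1c1 have 43.1% to 44.1% and that of Klf9 47.5%. A GC index was computed for each library as the median log2 deviation from the mean of the 12 libraries of the tenth of genes richest in GC, minus that of the tenth poorest in GC, without the 7 genes. It was 1.18 in saline male 2, 0.91 in saline male 1, and -1.15 in saline male 3, and lay between -0.67 and 0.56 in the other 9 libraries. Thra rose with this index (Pearson's r = 0.976, Spearman's rho = 0.979, n = 12, permutation p = 1e-05 for each, the smallest they can give, adjusted p = 9.33e-05 and 0.00028 over 28 relations). So did Hr (r = 0.971, permutation p = 1e-05, rho = 0.846, permutation p = 0.0009, adjusted p = 9.33e-05 and 0.00504). Klf9 went the other way (r = -0.905, permutation p = 0.0001, rho = -0.804, permutation p = 0.00235, adjusted p = 0.0007 and 0.011). Thrb also fell along the index (r = -0.735, permutation p = 0.0056, rho = -0.881, permutation p = 0.00046, adjusted p = 0.0157 and 0.00439), and Slco1c1 did by r alone (r = -0.758, permutation p = 0.00374, rho = -0.545, permutation p = 0.0711, adjusted p = 0.0131 and 0.124). Dio2 (r = -0.543) and Crym (r = 0.557) had adjusted permutation p of 0.0912 and 0.0882. Within saline and within morphine mice, r was 0.98 and 0.941 for Thra, 0.995 and 0.744 for Hr, -0.957 and -0.768 for Klf9, -0.863 and -0.842 for Thrb, and -0.870 and -0.592 for Slco1c1. Without the 2 libraries farthest from the median index, r was 0.974 for Thra, 0.932 for Hr, -0.759 for Klf9, -0.703 for Thrb, and -0.573 for Slco1c1.

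**Figure D3:**
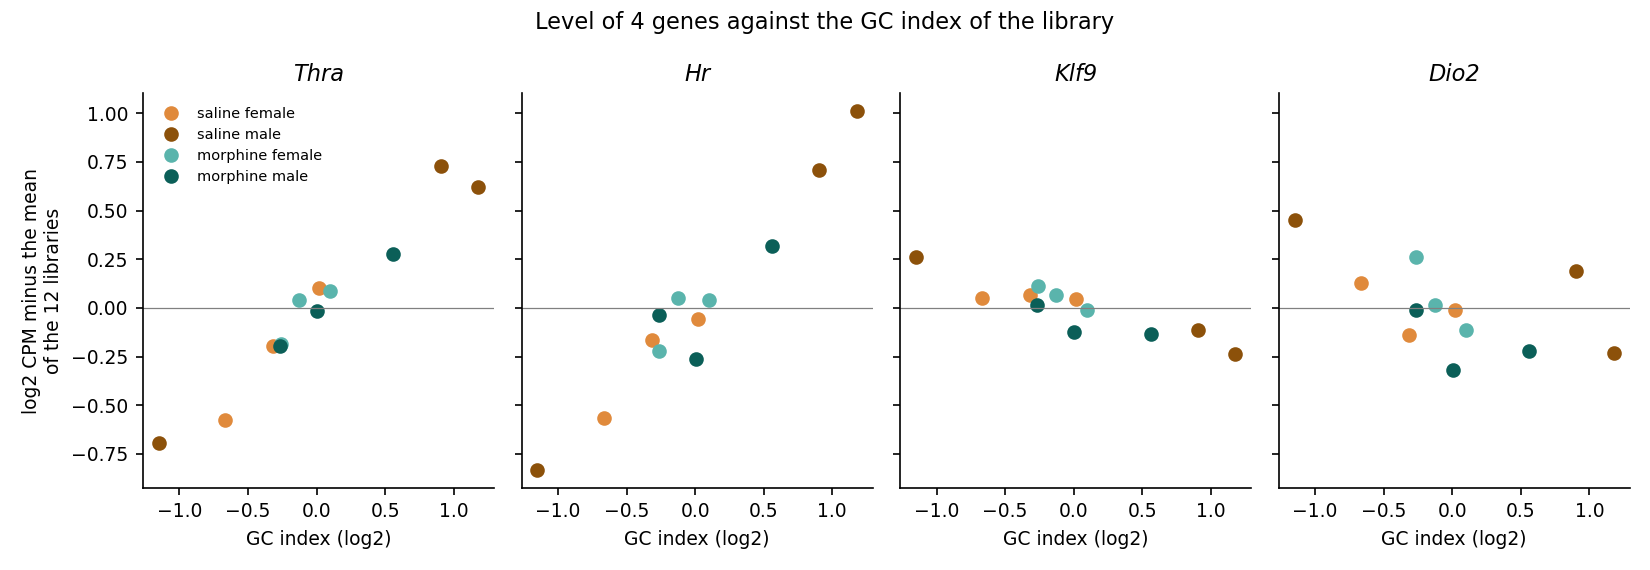
Log2 CPM of Thra, Hr, Klf9, and Dio2 as the deviation from the mean of the 12 libraries (y axis) against the GC index of the library (x axis, log2), each point a mouse colored by group. Thra and Hr rise along the index, Klf9 falls, and the 3 saline males (index -1.15, 0.91, and 1.18) mark both ends.

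Several of the 7 genes moved together or in opposite directions across libraries as measured. Thra and Hr correlated at r = 0.955 across the 12 libraries (permutation p = 1e-05, rho = 0.867, permutation p = 0.00047, adjusted p = 9.33e-05 and 0.00439), at 0.972 within saline and 0.782 within morphine mice, and at 0.929 without the 2 libraries farthest from the median of Thra. The 2 targets of T3 went opposite ways, with r = -0.829 between Klf9 and Hr (permutation p = 0.00105, rho = -0.636, permutation p = 0.0304, adjusted p = 0.00456 and 0.0709), and r = -0.564 without the 2 farthest libraries. That r was -0.953 within saline and -0.325 within morphine mice. Klf9 and Slco1c1 correlated at r = 0.862 (permutation p = 0.00027, rho = 0.769, permutation p = 0.00524, adjusted p = 0.00151 and 0.021), at 0.923 within saline and 0.773 within morphine mice, and at 0.769 without the 2 farthest. Of the 21 pairs, 9 had an adjusted permutation p under 0.05 for r, and the share among pairs of other genes was not computed. Each library's loess trend on GC content was then removed. This trend was fitted to these same libraries, from whose deviations the index also comes. A weaker relation to the index, and between genes that share it, was therefore built into the removal. After it, 0 of the 21 pairs had an adjusted permutation p under 0.05. So did 0 of the 7 relations to the index, against 5 of these 7 as measured. The r became 0.071 for Thra and Hr, 0.237 for Klf9 and Hr, and 0.404 for Klf9 and Slco1c1. The SD of log2 CPM over the 12 libraries went from 0.42 to 0.11 for Thra and from 0.50 to 0.09 for Hr, while it went from 0.27 to 0.21 for the median gene. Dio2 kept more of its spread, at 0.23 before and 0.19 after, and the sparsely counted Crym kept all of it, at 0.57 and 0.58.

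**Figure D4:**
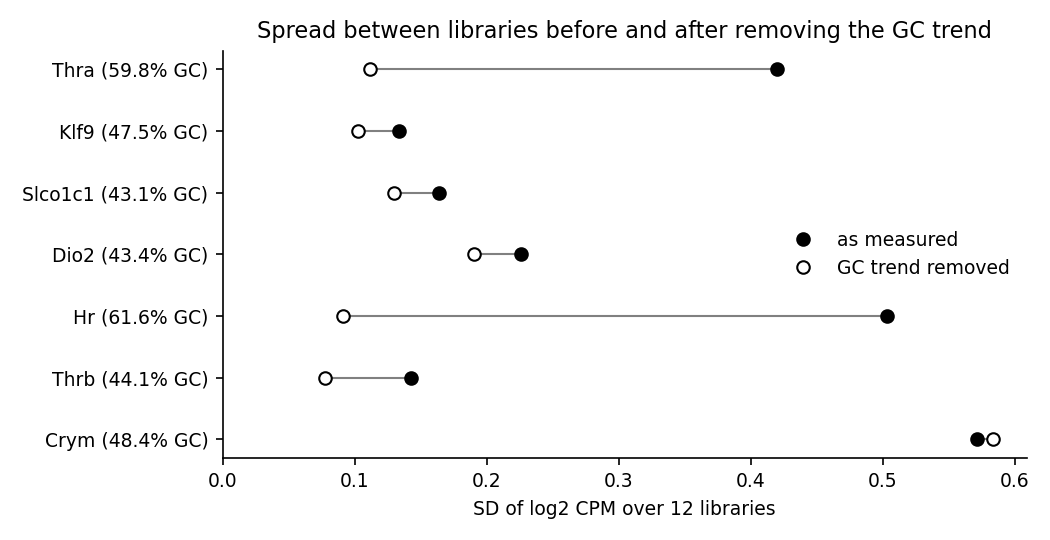
SD of log2 CPM over the 12 libraries (x axis, from 0) for each gene, with the GC content of its longest transcript, as measured (filled) and after each library's GC trend was removed (open). Thra and Hr, the 2 genes above 59% GC, move from 0.42 and 0.50 to 0.11 and 0.09, and the other 5 move less.

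Other genes followed each of the 7 closely over the 12 libraries. The 3 nearest to Thra by Pearson's r were Wsb2 (0.997), Mtch1 (0.995), and Asna1 (0.995), and the 3 nearest to Hr were Card19, Cdc42ep1, and Tyro3 (0.992 to 0.995), with 51.0% to 60.1% GC in these 6 genes. The 3 nearest to Klf9 were Tapt1 (0.986), Mtmr6, and Dcun1d5, and the 3 nearest to Slco1c1 were Ispd (0.971), Fdx1, and Arhgef26, with 41.1% to 49.6% GC. For Thrb they were Gm37494 (0.975), 2010315B03Rik, and Arap2, for Dio2 Trmt10a (0.880), Tlr7, and B230354K17Rik, and for Crym Lingo4 (0.903), Tnip2, and Shc3. With the GC trends removed, 1 of these 21 genes stayed among the 3 nearest to its member, Lingo4 for Crym at r = 0.919. These values share depth and base composition and are given as a description.

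The call for Thra and Hr in males turned on saline male 3. Without this mouse, Thra was lower in morphine males by a log2 fold change of -0.61 ± 0.15 (SE, adjusted p = 0.0362) and Hr by -0.80 ± 0.18 (adjusted p = 0.0255), both by edgeR's quasi-likelihood test. The difference between the sexes likewise became -0.82 for Thra (adjusted p = 0.0409 by edgeR's quasi-likelihood test) and -1.05 for Hr (adjusted p = 0.0175 by the same test). The number of DE genes among all genes in males without this mouse was 5341, against 543 with it. With GC offsets in the fit and all 6 males, the log2 fold change was 0.03 ± 0.09 for Thra and 0.0073 ± 0.10 for Hr, and with GC offsets and without saline male 3 it was 0.07 ± 0.09 and -0.0060 ± 0.10. In the 6 fits with GC offsets that each left out a male, neither gene was DE, and Thra lay between -0.06 and 0.08 and Hr between -0.06 and 0.10. In females, Thra went from 0.18 to 0.03 and Hr from 0.21 to 0.02 with GC offsets.

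Dio2 showed the opposite dependence. With GC offsets its log2 fold change in males was -0.36 ± 0.12 (SE, adjusted p = 0.434 by edgeR's quasi-likelihood test), which met the rule for DE, and the difference between the sexes was -0.49 ± 0.16 (adjusted p = 0.746 by the same test). With GC offsets 7.43% of all genes tested were DE in males and 6.18% for the difference between the sexes. The deviations of the 3 saline males from the mean of the 12 libraries, with GC trends removed, were 0.38, -0.0023, and 0.20, and those of the 3 morphine males were -0.33, -0.10, and -0.06, so the groups no longer overlapped. With the trends removed, 17.3% of genes did not overlap between these groups. In females the change was 0.12 ± 0.10. Dio2 was DE in males in 4 of the 6 fits with GC offsets that each left out a male, between -0.45 and -0.26, and not without saline male 1 (-0.26 ± 0.12) or without morphine male 4 (-0.28 ± 0.13). Without morphine male 6 it was -0.42 ± 0.14 and passed. For the difference between the sexes it was DE in 12 of 12 fits with GC offsets that each left out a mouse, between -0.59 and -0.40. By edgeR's quasi-likelihood test the smallest adjusted p was 0.0896 in the 6 fits of males and 0.167 in these 12. Such fits share most of their mice, so they are not separate tests. The share of all genes DE in them is not given here. Without GC offsets, leaving out each male gave -0.53 to -0.14 for Dio2 in males, and it was DE only when saline male 2 was left out (-0.53 ± 0.17). The smallest change, -0.14 ± 0.15, came without saline male 3. The GC offsets were chosen after the data were seen. Markers of several cell types were lower in morphine males as well. For astrocytes, the cells that make most of this deiodinase, the summed level of 8 of them ran from 7254 to 7548 CPM in saline males and from 6193 to 6772 CPM in morphine males without overlap, and from 7235 to 7793 and 7144 to 7870 CPM in saline and morphine females. As measured, 9.1% of all genes tested in males did not overlap either. The largest part of this astrocyte sum was Slc1a2, with a mean of 3595 CPM over the 12 libraries. In males 1 of the 8 was DE (Gjb6, lower), as it was with GC offsets, but 0 were without each male other than saline male 3 and 4 were without saline male 3. Of all genes tested in males, 2.99% were DE with all 6 mice and 7.43% with GC offsets. The share was 28.6% without saline male 3 and 1.36% to 2.47% without each other male. These shares also stand beside the counts of neuron and oligodendrocyte markers. The 6 neuron markers summed to 5554 to 6420 CPM in saline males and 5123 to 5212 CPM in morphine males, also without overlap, and 0 of them were DE, against 2 without saline male 3 and 1 with GC offsets. The 6 oligodendrocyte markers summed to 8469 to 13177 and 7662 to 9814 CPM, which overlapped, and 2 of them were DE and lower, 4 without saline male 3 and 1 without saline male 1, saline male 2, morphine male 4, or morphine male 5. The part of these cells in the level of Dio2 was not tested.

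**Figure D5:**
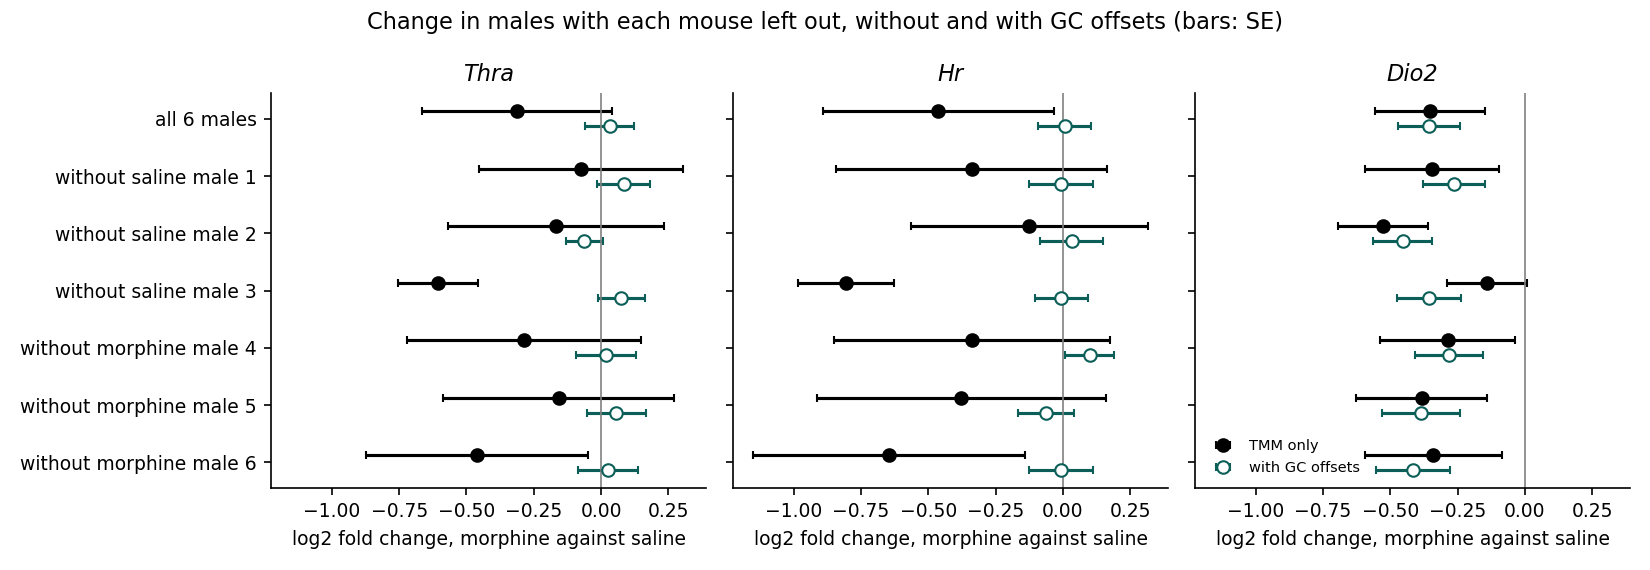
Log2 fold change in males (x axis, bars are SE) of Thra, Hr, and Dio2 with all 6 males and with each mouse left out (y axis), from TMM normalization alone (filled) and with GC offsets (open). Without saline male 3 the filled points of Thra and Hr move to -0.61 and -0.80 while the open points stay within 0.10 of 0, and the open points of Dio2 stay between -0.45 and -0.26.

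Around these genes, 49 others of the pathway were examined in 5 lists, of which 46 were tested in both sexes combined. None of them was DE in both sexes combined or in females. In males 1 of 46 was DE, higher with morphine, and for the difference between the sexes 1 was higher and 1 lower. Single mice decided these counts: 17 of 46 were DE in males without saline male 3, where 28.6% of all genes were, 2 without morphine male 6 (2.47% of all genes), and 0 without morphine male 4 (1.36%). For the difference between the sexes 12 of 46 were DE without saline male 3 (24.1% of all genes) and 1 without each of 7 other mice (1.49% to 4.41%). In females 6 of 46 were DE without saline female 4 (7.95% of all genes), 3 without morphine female 2 (3.73%), and 2 without saline female 6 (1.27%) or morphine female 3 (1.52%). In both sexes combined 1 was DE without saline male 1 (1.35%) or saline male 3 (2.42%). By list, 1 of 20 T3-responsive genes was DE in males (Reln), while 0 of 5 hormone transport genes, 0 of 13 receptor partners and coregulators, 0 of 3 tested deiodination genes, and 0 of 5 tested genes of the thyroid axis were. The median log2 fold change in males was 0.15 for transport genes, -0.13 for T3-responsive genes, 0.0017 for receptor partners and coregulators, 0.11 for deiodination genes, and -0.10 for the thyroid axis, beside -0.06 over all genes tested.

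Reln, which encodes the extracellular matrix protein that guides migrating neurons, had 66.3, 71.4, and 70.0 CPM in saline males and 92.9, 90.8, and 83.3 CPM in morphine males. Every morphine male was above every saline male, where 9.1% of all genes tested in males did not overlap between the groups. Kcnj10 and Me1 of the same list did not overlap in males either. Both were lower with morphine (log2 fold change -0.21 and -0.17) and neither was DE. For Reln, the values of the fit were as follows. The log2 fold change was 0.35 ± 0.12 (SE, adjusted p = 1.00 by edgeR's quasi-likelihood test), and it was 0.34 and still DE with GC offsets (adjusted p = 0.434 by the same test). It missed the rule without saline male 1 (0.32) and without morphine male 4 (0.32), and without a filter on low counts (0.34). In females the change was -0.19 ± 0.14, and the difference between the sexes was 0.56 ± 0.18 (adjusted p = 0.985 by edgeR's quasi-likelihood test) and DE whichever of the 12 mice was left out. Nrgn, which encodes the postsynaptic calmodulin-binding protein neurogranin, differed between the sexes by -1.12 ± 0.47 and by -0.68 with GC offsets, where it was DE too (adjusted p = 0.985 and 0.746 by edgeR's quasi-likelihood test). It missed the rule with total counts in place of TMM and without each of 7 of the 12 mice, and moved to -0.77 without saline male 2. In males Nrgn was at -0.87 ± 0.40 and missed the rule. There it was DE without a filter, with DESeq2's Wald test, with exactTest, from the fit of all 12 mice, and with GC offsets. Its levels in saline males were 10.2, 13.4, and 4.17 CPM, in the same order across these mice as the GC index.

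The enzymes and carriers on these lists gave values without a call in the 4 comparisons, although the alternatives called Ttr and, in males with GC offsets, the carrier gene Slc7a8. Dio3, which inactivates T3 and T4, and Dio1 were at no more than 0.306 and 0.153 CPM in any library and were not tested. Ttr, the T4 carrier that the choroid plexus secretes, ranged from 1.28 to 498.0 CPM in saline mice and from 18.9 to 773.6 CPM in morphine mice (log2 fold change 0.03 ± 0.87, SE, in both sexes combined). In males it was 498.0, 411.2, and 237.7 CPM with saline and 731.6, 773.6, and 386.1 CPM with morphine, at 0.72 ± 0.34, which missed the rule. Leaving out each male gave 0.49, without saline male 3, to 0.96, without morphine male 6, and Ttr was DE without morphine male 6 and without saline male 1 (0.95). With all 6 males it was DE with total counts (0.84), without a filter on low counts (0.71), with DESeq2's Wald test (0.73), and with exactTest (0.72). In females it was -0.73 ± 1.29, and without a filter it was -0.72 ± 0.11 and DE (adjusted p = 1.99e-07 by edgeR's quasi-likelihood test). The levels of saline females, from 1.28 to 423.3 CPM, nonetheless spanned those of morphine females, from 18.9 to 149.1 CPM. An SE of 0.11 is far below this spread, so that p does not measure the spread between mice. The log2 fold change of Ttr in females went to 2.55 ± 1.02 and was DE the other way without saline female 6. The summed level of 6 choroid plexus markers was 37.6 to 49.0 CPM in saline males and 40.9 to 80.1 CPM in morphine males, and 20.5 to 65.5 and 23.5 to 32.6 CPM in saline and morphine females, and 3 of the 6 were DE in males, all higher. Without morphine male 6 the count was 5, without saline male 3 it was 4, and without each of the other 4 males it was 1. The 6 cerebellar granule cell markers summed to 76.7 to 98.4 CPM in saline males and 84.2 to 144.6 CPM in morphine males, where 3 of the 6 were higher and DE. This count was 4 without morphine male 6, 2 without saline male 1 or morphine male 5, 1 without saline male 2, and 3 without saline male 3 or morphine male 4. Beside both lists, 2.99% of all genes tested were DE with all 6 males and 2.47% without morphine male 6. The share was 28.6% without saline male 3 and 1.36% to 1.92% without each of the other 4 males. None of these 12 markers was at 0 in all libraries. The part of these cells in the values of Reln and Ttr was not tested.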

How the data were processed

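Poly-A RNA of the brainstem of 12 mice was sequenced as single-end reads. The submitters' processing notes name Trimmomatic, STAR, featureCounts of Subread, limma, and edgeR, and the build mm10. The deposited values are the authors' raw counts of reads per gene: whole numbers whose totals differ between libraries. Groups came from the labels, which give treatment, sex, and replicate number but not the dam.

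The fits over all genes used edgeR 4.0.16 in R 4.3.3 (quasi-likelihood test), after TMM normalization and filterByExpr, with sex as covariate in the sex-combined fit, each sex alone, and an interaction fit over all 12 mice. DE means p under 0.05 before adjustment with a log2 fold change beyond 0.26 in size, and Benjamini-Hochberg values were adjusted over all genes. Levels are CPM with TMM factors, log2 values use a prior count of 2, and ± is the SD for levels and the SE for fold changes. The SE was computed from the fold change and the F statistic. Positions, exon lengths, and GC content are those of GENCODE M21 on GRCm38, in which all 55418 symbols were found and 115 stand for more than 1 gene ID. Exon length is that of all exons of a gene merged, and GC content is that of its longest transcript. GC offsets are loess trends (span 0.5) of each library's log2 deviations on GC content, fitted to these libraries themselves. Correlations used 100000 permutations, and the 28 relations were adjusted together. The scripts were tested on simulated data.

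Alternatives were DESeq2 1.42.0, its size factors in edgeR, total counts, other filters, exactTest, no covariate, a replicate block, the fit of all 12 mice, p alone, an exact permutation test, and leaving out each mouse. The 7 genes, the lists, and the tests were chosen with earlier results of these data known. The genes named are these 7, the DE genes of the pathway lists, Dio3, Ttr, genes overlapping a member, and the 3 nearest genes to each member. Dio1, Slc7a8, Kcnj10, Me1, and the genes that check tissue, sex, and cell type were named after their values were seen. Another gene covered by this choice is not reported here. No 2 libraries of a group agreed within sampling noise.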

Additional observations from a re-analysis of the deposited data

Results flagged for a closer look

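Crym was at 2.29 CPM in saline male 1, far above the other 5 saline mice, of which the next had 1.14 CPM. Reln was at 87.1 CPM in saline female 6, against 73.4 CPM in the next saline mouse. Among 6 values, chance alone marks about 5% of groups in this way. The change with morphine differed between the sexes by a log2 fold change of 0.56 for Reln and -1.12 for Nrgn by the interaction term of edgeR, each before adjustment for the number of genes.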

How the results depend on the processing

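With 3 mice of each sex and treatment, single mice moved many values, and a log2 fold change near 0 changed sign easily. The cause of the changes given here was not tested. Of the 7 genes, 0 were DE under every setting that kept all mice, except that 1 (Dio2) was DE in males and 1 (Dio2) in the difference between the sexes with GC offsets. Leaving out each mouse gave 0 to 1 DE members in both sexes combined and in females and 0 to 2 in males and in the difference between the sexes. For the pathway lists these ranges were 0 to 1 in both sexes combined, 0 to 6 in females, 0 to 17 in males, and 1 to 12 in the difference between the sexes. With all mice kept, the lists had 2 DE genes in females without a filter (3.15% of all genes tested). They had 1 with a filter of 10 counts (1.7%), with total counts (1.93%), or with p alone (1.89%), against 0 (1.81%). In males they had 3 without a filter (2.83%), with DESeq2's Wald test (2.94%), with exactTest (2.98%), or with GC offsets (7.43%). They had 2 with total counts (4.44%) or from the fit of all 12 mice (4.15%), against 1 (2.99%). In the difference between the sexes they had 4 without a filter (4.44%) and 1 with total counts (3.68%), against 2 (2.94%).

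Over all genes, the median change with total counts in place of TMM was 0.061 against -0.06 in males, and 0.068 against -0.03 in the difference between the sexes. With that scaling, the log2 fold changes that changed sign were Slco1c1 0.043 and Klf9 0.028 in both sexes combined, Klf9 0.0044 in females, Thrb 0.071, Slco1c1 0.049, and Klf9 0.052 in males, and Slco1c1 0.013 and Klf9 0.047 in the difference between the sexes. With GC offsets they were Thra 0.031, Slco1c1 0.0035, and Hr 0.015 in both sexes combined, Klf9 0.041 in females, Thra 0.032 and Hr 0.0073 in males, and Thra 0.0026 and Thrb -0.073 in the difference between the sexes. Klf9 in females was 0.0019 with the filter of 10 counts and 0.0045 from the fit of all 12 mice, and Thra was 0.0037 as the difference of mean log2 CPM in the permutation test. The replicate numbers of the labels were not taken to pair the mice. The deviations of same-numbered mice correlated at 0.367, -0.018, -0.178, -0.153, 0.269, and -0.168. These values cannot exclude a pairing by litter, since the dam was not known and the libraries also differed in base composition. The replicate block, fitted in both sexes combined, left 0 DE members, with Thra at 0.0068 and Slco1c1 at 0.0010, and 204 DE genes in all against 221. Within a sex no paired analysis was possible because the groups share no numbers.

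Leaving out each mouse in both sexes combined, the values ran from -0.19 to 0.082 for Thra, -0.048 to 0.058 for Slco1c1, -0.067 to 0.041 for Klf9, -0.27 to 0.071 for Hr, and -0.20 to 1.47 for Ttr. In females they ran from -0.052 to 0.14 for Dio2, -0.0095 to 0.071 for Slco1c1, -0.032 to 0.029 for Klf9, and -1.30 to 2.55 for Ttr. In males, fits with GC offsets included, they ran from -0.61 to 0.084 for Thra, -0.12 to 0.085 for Thrb, -0.18 to 0.12 for Slco1c1, -0.19 to 0.13 for Klf9, -0.80 to 0.10 for Hr, and -0.21 to 0.73 for Crym. In the difference between the sexes they ran from -0.051 to 0.14 for Thrb, -0.18 to 0.059 for Slco1c1, -0.16 to 0.094 for Klf9, -0.84 to 0.17 for Crym, and -1.84 to 2.00 for Ttr.

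Over all genes, 221, 328, 543, and 559 were DE in both sexes combined, in females, in males, and in the difference between the sexes. Without a filter the counts were 754, 1094, 985, and 1665. With GC offsets they were 321, 310, 1347, and 1173, and the fit of all 12 mice gave 218 in females. Leaving out each mouse gave 177 to 458, 208 to 1482, 253 to 5341, and 290 to 4695, the highest without saline male 3 in 3 of these and without saline female 4 in females. Depth limits Crym most, which rests on 18 to 77 counts per library.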
